A study of Homo sapiens with 6 samples.

Results

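The genes of glucose uptake, glycolysis, lactate handling and the pentose phosphate branch were examined in MDA-MB-231 cells with a brachyury hairpin. The set held 35 genes, chosen by symbol as glucose transporters, glycolytic enzymes, pyruvate dehydrogenase regulators, lactate carriers and pentose phosphate enzymes, of 54259 symbols in the table of counts. All 35 symbols were listed, and 34 had enough counts to be tested, among 15277 tested genes in all. RNA-Sequence data were deposited for 3 libraries with a brachyury hairpin (MDA-MB-231 shBry) and 3 libraries with a control hairpin (MDA-MB-231 shNC). MDA-MB-231 is a long-established line of human breast cancer, so both groups shared the line and the presence of a hairpin, and the labels give no drug, dose or time. The labels do not name the hairpin sequence or say whether the 3 libraries of a group came from separate cultures, so that p-values measure the spread between these libraries, which may be technical.

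Glycolysis splits glucose into pyruvate in the cytosol, and tumor cells commonly pass that pyruvate on to lactate even where oxygen is present. Transporters of the SLC2A family bring glucose in, hexokinase traps it, phosphofructokinase commits it, and the enzymes from aldolase to pyruvate kinase yield ATP. Pyruvate then goes to lactate through lactate dehydrogenase or into the mitochondrion through pyruvate dehydrogenase, which the PDK kinases switch off, and the pentose phosphate branch draws sugar phosphates aside for NADPH and ribose.

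Brachyury, listed under its older symbol T, had 0 counts in each of the 6 libraries, which allows between 0.131 and 0.155 CPM per library (3 counts of the total, counting error only). The knockdown could therefore not be checked on its target. Total counts per library lay between 19319411 and 22985371. Of 10 genes that mark MDA-MB-231 cells, all 10 had a mean of at least 1 CPM. Of 9 genes held to be low in this line, 5 had at least 1 CPM, KRT8 among them, and their summed level was 859 to 940 CPM in shNC and 237 to 284 CPM in shBry. The deposited design text calls the RNA pericardial. None of 8 cardiomyocyte markers reached 1 CPM (summed level at most 2.15 CPM), and 6 mesothelium markers summed to 40.2 to 42.1 CPM in shNC and 51.6 to 57.9 CPM in shBry. Of 8 leukocyte markers, PTPRC and TYROBP were among 3 at 0 in every library. CD68 and CSF1R were the 2 above 1 CPM, and the list summed to 372 to 405 CPM in shNC and 405 to 434 CPM in shBry. Fibroblast and endothelial markers summed to at most 35.9 and 4.63 CPM. The part of these genes in the results was not tested.

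Most of the glycolytic pathway was lower in shBry. Of the 34 tested genes, 18 were called lower and 1, the glucose transporter gene SLC2A3, was called higher, where a call required both an adjusted p under 0.05 and more than a 1.5-fold difference (quasi-likelihood test of edgeR, adjusted by Benjamini-Hochberg over every gene tested). Standard errors of log2 fold changes are written SE. Of all tested genes, 32.4% were called, 15.2% lower and 17.1% higher. The members' median log2 fold change was -0.61, against 0.03 over all tested genes. The members are abundant, so they were also set beside genes of a mean of at least 100 CPM: 14 of the 24 members at that level were called lower, against 14.1% of the 2196 genes at that level, whose median log2 fold change was 0.00. For 24 members all 3 shBry values lay below all 3 shNC values, and for 3 members all lay above, where 28.9% and 30.6% of all tested genes did so. In bulk RNA, less RNA of a gene per cell and fewer cells that express it cannot be told apart.

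**Figure D1:**
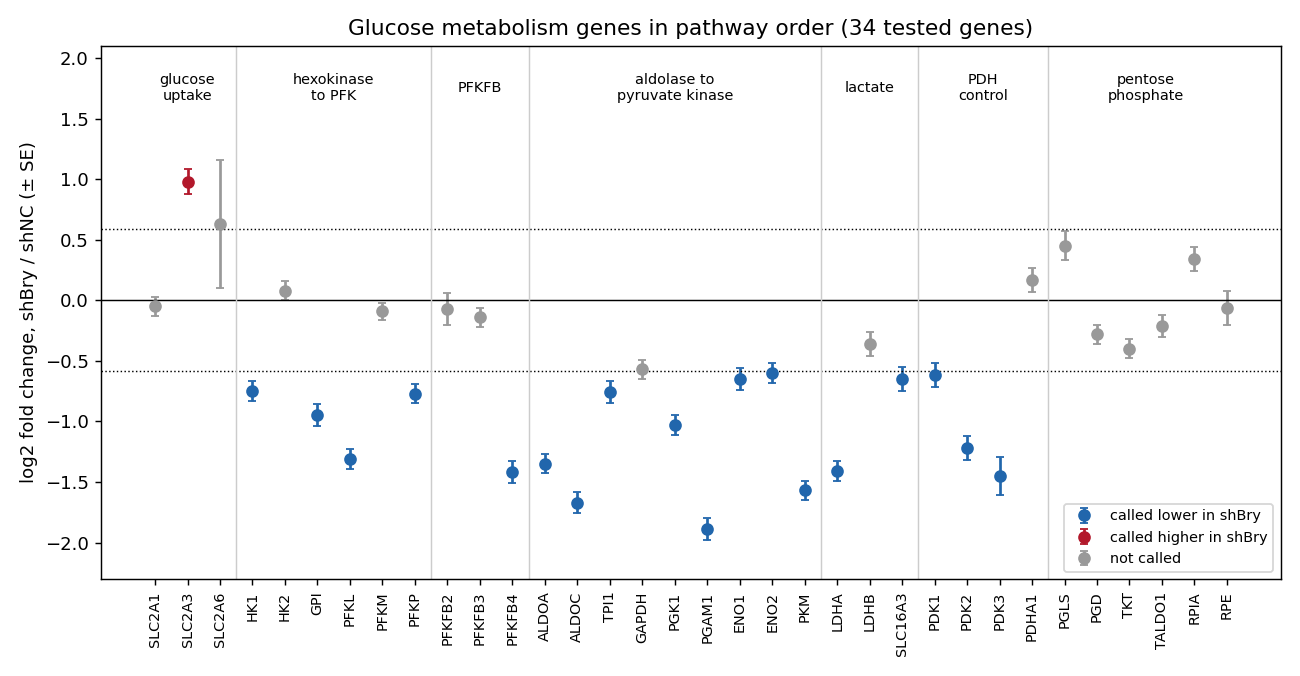
Log2 fold change of shBry over shNC (y axis, with its SE) for the 34 tested genes in pathway order (x axis), and dotted lines at the fold change limit of 1.5. The 18 blue genes lie between -0.60 (ENO2) and -1.89 (PGAM1), mostly from hexokinase to lactate dehydrogenase. SLC2A3, at 0.98, is the only gene called higher. SLC2A6, at 0.63 (SE 0.53), also lies above the upper dotted line but was not called. The pentose phosphate genes lie inside the dotted lines.

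Together the 35 genes took 3.41%, 3.34% and 3.21% of all counts in shNC replicates 1, 2 and 3. They took 1.93%, 1.78% and 1.82% in shBry replicates 1, 2 and 3. The share was thus 1.8 times larger in shNC, with no overlap between groups (exact two-sided permutation test, p = 0.1, the smallest that 3 against 3 libraries can give). The GAPDH, ENO1 and PKM genes alone made up 1.76% ± 0.054 (SD, n = 3) of all counts in shNC and 0.995% ± 0.055 in shBry.

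Short stretches of promoter are shown first, because many of the members are classical targets of the hypoxia factor HIF, which binds a core written ACGTG. Such targets were found among the members called lower, as with PGK1 and LDHA, and among those not called, as with SLC2A1, HK2 and PFKFB3 (log2 fold change -0.05, 0.08 and -0.14). Promoter windows of 250 bases before to 50 after the start site (RefSeq, GRCh38.p14) were found for 32 of the 35 members, all except PFKFB2, SLC16A1 and SLC2A3. For members and tested genes, only the first listed window of a symbol was used, which need not be that of the main promoter. ACGTG on either strand occurred in 10 of the 32 windows (31.2%), against 21.4% of all 35116 windows and 26.9% of those of tested genes. It occurred in 7 of 18 members called lower and in 3 of the 14 others. The match nearest the start site lay upstream in 9 of those 10 genes, and the 30 bases around it are given for these 9, 5′ to 3′ on the gene's strand, with each match in capitals (CACGT is the same core read on the other strand, and CACGTG holds both). They were picked by the match, with the expression values known.
LDHA: ACGTGggttcccgCACGTccgccggccccc
ALDOC: cccccggaggagtCACGTagctctgcgaca
ALDOA: cccttcccctccaCACGTcaacgattctat
PDK3: tcgcgcgccgcgtACGTGcagcaaccgact
GPI: aacactgcctgtaACGTGgaaggtgttcga
ENO2: cacccgcgctcgtACGTGcgcctccgccgg
GAPDH: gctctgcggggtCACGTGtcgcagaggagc
HK2: caatgggcgtgcgCACGTcactgatccgga
PGD: gggggtgggcgggCACGTttgcctcggatg
The first 6 belong to genes called lower and the last 3 to genes that were not called. LDHA held 3 separate matches, and ALDOC and HK2 held 2 each. PGK1, also called lower, held 3, the nearest of them 29 bases downstream of its start site. Among the genes called lower, the stretches are chr11:18394477-18394506 for LDHA, chr17:28576907-28576936 for ALDOC (minus strand, the others plus), chr16:30064088-30064117 for ALDOA, chrX:24465212-24465241 for PDK3, chr19:34364817-34364846 for GPI and chr12:6914449-6914478 for ENO2. Those of the genes not called are chr12:6535171-6535200 for GAPDH, chr2:74834066-74834095 for HK2 and chr1:10398906-10398935 for PGD. The capitals began between 28 bases (ALDOC) and 178 bases (ALDOA) upstream of the start site.
The longer E-box CACGTG, which MYC and other factors bind and which overlaps ACGTG, was in 3 of the 32 windows (9.38%), those of LDHA, ALDOC and GAPDH, against 7.26% of all windows and 10.2% of those of tested genes. The SP1 box GGGCGG was in 26 windows (81.2%), against 45.0% of all windows and 69.5% of those of tested genes. It was in 12 of 18 members called lower and in all 14 others. AGGTGTGA, a piece of the T-box element, was searched because brachyury is a T-box factor, and 0.98% of all windows hold it. PGAM1 was the member whose window held it, at chr10:97427568-97427597 (plus strand), 247 bases upstream of the start site of that window. In the GENCODE annotation the PGAM1 gene begins at 97426160, so this stretch lies inside the gene.
PGAM1: ggtAGGTGTGAggaactggtaggcttttgg
These are matches of letters in a short window and no measurement of binding. Except for GAPDH and PGD, the printed stretches also lie wholly or partly in exons of the GENCODE annotation, of the same or of another gene. Apart from those of ALDOA and PDK3, they lie wholly inside the GENCODE bounds of their own gene. The GPI gene, for example, begins there at 34359480 and the GAPDH gene at 6533927.

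The 3 glucose transporter genes among the members showed no common change. Of those outside the members, SLC2A12 and SLC2A4 were called lower (log2 fold change -2.58 and -2.28) and SLC2A14 higher (1.03). Their group means were at most 6.94 CPM, and SLC2A8, SLC2A10 and SLC2A13 were not called. SLC2A1, the main basal glucose transporter GLUT1, on chromosome 1 of GRCh38 from 42925375 to 42959176, had 368, 347 and 309 TMM-normalized CPM in shNC and 320, 329 and 342 CPM in shBry. The groups overlapped (log2 fold change -0.05, standard error 0.08, adjusted p = 0.66), and the sign turned to 0.01 without shNC replicate 1. SLC2A3, which encodes the high-affinity transporter GLUT3, on chromosome 12 from 7919230 to 7936275, had 53.2, 54.4 and 52.6 CPM in shNC and 89.2, 117 and 109 CPM in shBry. Every shBry library exceeded every shNC library, with a log2 fold change of 0.98 (SE 0.10, adjusted p = 2.1e-06, edgeR). Its transcripts share 16% of their stretches of 50 bases with other genes, most with SLC2A14 and SLC2A3 pseudogenes. The pseudogene rows held 7.54% to 11.8% of the joint counts of gene and copies, and with them added the log2 ratio of mean CPM was 0.94 in place of 0.98. SLC2A6, another member of the family, lay between 0.2 and 1.02 CPM in all libraries and was not called. Per kilobase of exon, SLC2A1 remained the most abundant of the 3 transporters, but the SLC2A1 to SLC2A3 ratio per kilobase was 8.31 in shNC and 4.12 in shBry. Summed over the 3 genes, 81 ± 6.39 CPM per kilobase in shNC stood against 87.3 ± 4.25 in shBry (SD, n = 3), with overlapping libraries.

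At the entry of glycolysis, the hexokinase gene HK1 was called lower and HK2 was not. HKDC1, a gene of glucose phosphorylation outside the members, was called higher (log2 fold change 1.33, adjusted p = 0.00059, edgeR). Its mean was 1.27 CPM in shNC and 3.21 CPM in shBry. HK1, the widely expressed hexokinase, had 476, 434 and 433 CPM in shNC and 285, 249 and 263 CPM in shBry, a log2 fold change of -0.75 (SE 0.08, adjusted p = 3.2e-06, edgeR). HK2, the inducible hexokinase that many tumors express, had 173, 157 and 164 CPM in shNC and 172, 176 and 175 CPM in shBry (log2 fold change 0.08, adjusted p = 0.38). HK1 libraries were thus separate between groups, whereas HK2 libraries overlapped. GPI, the isomerase that follows, had 593, 569 and 510 CPM in shNC and 315, 274 and 276 CPM in shBry, and its log2 fold change was -0.95 (SE 0.09, adjusted p = 6.5e-07).
The 3 phosphofructokinase genes, which encode the liver, muscle and platelet subunits of the committing enzyme, did not change alike. PFKL had 307, 302 and 274 CPM in shNC and 124, 120 and 112 CPM in shBry, a log2 fold change of -1.31 (SE 0.08, adjusted p = 1.3e-08, edgeR). PFKP, the most abundant of the 3 per kilobase, had 719, 682 and 656 CPM in shNC and 427, 402 and 378 CPM in shBry (log2 fold change -0.77, adjusted p = 2e-06). PFKM had 163, 161 and 158 CPM in shNC and 157, 148 and 148 CPM in shBry. Its groups did not overlap, but the log2 fold change was -0.09 and the adjusted p 0.35.
The PFKFB genes encode the enzymes that set the level of fructose 2,6-bisphosphate, the main activator of phosphofructokinase. PFKFB4 was called lower, with 80, 87.1 and 75 CPM in shNC and 29.8, 31.7 and 29 CPM in shBry (log2 fold change -1.42, standard error 0.09, adjusted p = 2.4e-08, edgeR). PFKFB3, the isoform of highest kinase activity, had 164, 154 and 148 CPM in shNC and 133, 140 and 148 CPM in shBry, and PFKFB2 lay between 11.7 and 13.5 CPM in all libraries. Neither was called (edgeR adjusted p = 0.15 for PFKFB3 and 0.67 for PFKFB2).

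**Figure D2:**
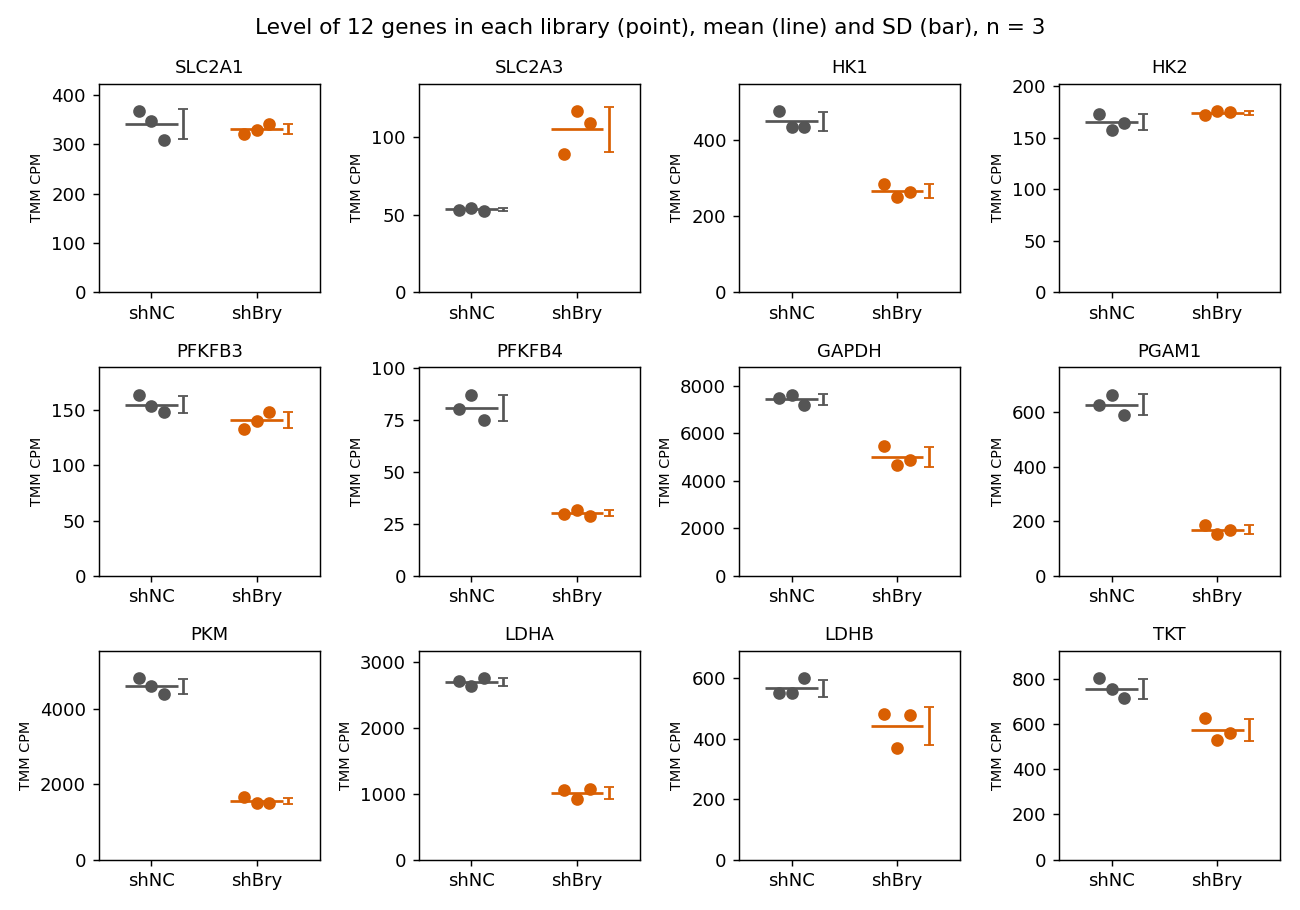
TMM-normalized CPM (y axes, from 0) of 12 of the genes in each shNC and shBry library (points), with the group mean (line) and SD (bar). PFKFB4, PGAM1, PKM and LDHA libraries are far apart between groups, whereas those of SLC2A1, HK2 and PFKFB3 overlap and SLC2A3 is higher in all 3 shBry libraries.

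All 9 genes from aldolase to pyruvate kinase had lower values in every shBry library than in any shNC library, and 8 were called lower. PGAM1, the phosphoglycerate mutase on chromosome 10 from 97426160 to 97433441, changed most of all 34 genes. It had 626, 663 and 588 CPM in shNC and 185, 154 and 169 CPM in shBry, so shBry kept 27% of the shNC level (log2 fold change -1.89, standard error 0.09, adjusted p = 7.9e-10, edgeR). Other genes, among them PGAM4 and unnamed copies, share 30.5% of the stretches of 50 bases in its transcripts, and the rows of its 13 numbered pseudogenes held at most 0.382% of the joint counts.
The aldolase genes, whose enzymes cut the 6-carbon sugar, were both called lower. The log2 ratio of ALDOA over ALDOC was higher in shBry by 0.32 (SE 0.08), with no overlap between groups. ALDOC, on chromosome 17 from 28573115 to 28577264, had 161, 162 and 137 CPM in shNC and 46.6, 48.9 and 49 CPM in shBry (log2 fold change -1.67, standard error 0.09, adjusted p = 2.8e-09). ALDOA, about 10-fold more abundant per kilobase in shNC (a ratio of 9.94), had 2135.9, 2081.3 and 1895.2 CPM in shNC and 851, 740 and 809 CPM in shBry, a log2 fold change of -1.35 (SE 0.08, adjusted p = 1.3e-08). Other annotated genes overlap 53.5% of the exon bases of ALDOA, so the counting could have shared its reads.
PKM, the pyruvate kinase gene on chromosome 15 from 72199029 to 72231822, had 4809.5, 4601.6 and 4407.2 CPM in shNC and 1656.3, 1491.5 and 1516.5 CPM in shBry. The shBry level was 33.8% of that in shNC (log2 fold change -1.57, standard error 0.08, adjusted p = 1.8e-09, edgeR). The counts are per gene, so the M1 and M2 splice forms of PKM could not be separated.
PGK1, the first ATP-yielding enzyme and an X-linked gene, had 2085.4, 2120.0 and 1919.5 CPM in shNC and 1030.5, 930 and 1037.7 CPM in shBry (log2 fold change -1.03, standard error 0.08, adjusted p = 1.3e-07). TPI1, the triosephosphate isomerase, had 2070.8 ± 108 CPM in shNC and 1222.2 ± 143 in shBry (SD, n = 3), with a log2 fold change of -0.76 and an adjusted p of 9.2e-06 by edgeR. Both groups of libraries were separate for these genes. The enolase genes were closer to the limit of 1.5-fold. The log2 fold change was -0.65 for ENO1 and -0.60 for ENO2, the neuronal form (adjusted p = 2.7e-05 and 2.1e-05, edgeR). ENO1 had 5472.6 ± 254 CPM in shNC and 3481.7 ± 369 in shBry, and ENO2 had 268 ± 14.8 and 177 ± 7.85 (SD, n = 3). ENO2 came under the limit, at -0.57, without shNC replicate 1 or without shBry replicate 3.
GAPDH, the glyceraldehyde-3-phosphate dehydrogenase often taken as a reference gene, was the most abundant member per kilobase in both groups. It had 7496.3, 7622.5 and 7178.6 CPM in shNC and 5462.2, 4654.8 and 4877.9 CPM in shBry. The groups did not overlap and the adjusted p was 4.6e-05 (edgeR), but the log2 fold change of -0.57 (SE 0.08) was just inside the limit of 1.5-fold, and GAPDH was not called. It passed the limit with DESeq2, where its log2 fold change was -0.59. TPI1, GAPDH and ENO2 lie near each other on the short arm of chromosome 12, between 6533927 and 6923698.

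Lactate dehydrogenase was examined by its subunits. LDHA, the subunit that favors lactate formation, on chromosome 11 from 18394388 to 18408425, had 2714.5, 2632.2 and 2749.7 CPM in shNC and 1052.8, 914 and 1071 CPM in shBry. This was a log2 fold change of -1.41 (SE 0.08, adjusted p = 7.3e-09, edgeR), with all shBry libraries far below shNC. LDHB, the subunit typical of heart muscle, had 553, 551 and 600 CPM in shNC and 482, 371 and 479 CPM in shBry. Its groups did not overlap, but the log2 fold change of -0.36 (SE 0.10, adjusted p = 0.0076) was under the limit, and 33.4% of its exon bases are shared with an overlapping gene. The LDHA to LDHB ratio per kilobase went from 2.28 in shNC to 1.1 in shBry.
Of the lactate carriers, SLC16A3, which encodes the exporter MCT4, had 462, 444 and 371 CPM in shNC and 293, 245 and 278 CPM in shBry (log2 fold change -0.65, standard error 0.10, adjusted p = 6.6e-05, edgeR). SLC16A1, which encodes MCT1, had at most 3 counts in any library, so it was not tested and no difference was detectable at this depth. BSG, the chaperone of both carriers, had 1554.5 ± 86.9 CPM in shNC and 1446.3 ± 103 in shBry (SD, n = 3), with a log2 fold change of -0.10 and an adjusted p of 0.3 by edgeR. It was named after its values were seen.

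The genes that control entry of pyruvate into the mitochondrion differed between the kinases and their substrate. All 3 PDK genes among the members, whose kinases inactivate pyruvate dehydrogenase, were called lower. PDK3 had 19.3, 19.4 and 22.1 CPM in shNC and 7.43, 9.15 and 5.67 CPM in shBry (log2 fold change -1.45, standard error 0.16, adjusted p = 5e-06, edgeR). PDK2 had 62, 62.4 and 58.7 CPM in shNC and 23.6, 26.8 and 27.9 CPM in shBry (log2 fold change -1.22, standard error 0.10, adjusted p = 1.6e-07), although SAMD14 on the opposite strand overlaps 38.6% of its exon bases. PDK1, a hypoxia-regulated kinase, had 44.5, 47.5 and 49.8 CPM in shNC and 28.3, 31.8 and 32 CPM in shBry. Its log2 fold change of -0.62 (SE 0.10, adjusted p = 0.00011) came under the limit, at -0.57, without shBry replicate 1. For these 3 genes, no shBry library reached the lowest shNC library. PDK4, outside the members and named after its values were seen, was not called (log2 fold change -0.21, adjusted p = 0.59, edgeR). It had 1.47, 2.08 and 1.65 CPM in shNC and 0.915, 1.39 and 2.13 CPM in shBry, so its groups overlapped. PDHA1, the catalytic subunit that the kinases phosphorylate, had 113, 106 and 116 CPM in shNC and 135, 106 and 135 CPM in shBry, and was not called (log2 fold change 0.17, adjusted p = 0.17).

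None of the 6 pentose phosphate genes was called by edgeR, DESeq2 or limma-voom. An unadjusted p below 0.05 was reached by 5 of them and an adjusted p below 0.05 by 4, all with fold changes under 1.5. An adjusted p below 0.05 at any fold change was also reached by 8139 of all 15277 tested genes, so the 4 are no trait of this branch. TKT, the transketolase that returns pentoses to glycolysis, had 801, 754 and 714 CPM in shNC and 625, 531 and 561 CPM in shBry (log2 fold change -0.40, standard error 0.08, adjusted p = 0.0011, edgeR). PGD, the enzyme of the second NADPH-yielding step, had 267 ± 10.6 CPM in shNC and 219 ± 15.1 in shBry (SD, n = 3), a log2 fold change of -0.28 with an adjusted p of 0.0085 by edgeR.
The values of PGLS and RPIA went the other way. PGLS, the lactonase, had 78, 81.1 and 63.9 CPM in shNC and 120, 87.4 and 98.2 CPM in shBry, and RPIA, the ribose-5-phosphate isomerase, had 48.7, 41 and 49.4 CPM in shNC and 63.5, 52.9 and 59.3 CPM in shBry. For both, every shBry library exceeded every shNC library, and the log2 fold change was 0.45 for PGLS (adjusted p = 0.0054, edgeR) and 0.34 for RPIA (adjusted p = 0.014). TALDO1, the transaldolase, had a log2 fold change of -0.21 with an adjusted p of 0.057, and RPE, the epimerase, had -0.06 with an adjusted p of 0.75.

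The steps of the pathway were compared by summing the genes of each step per kilobase of exon. From glucose import to lactate export, the sums of every step except import were lower in all shBry libraries than in any shNC library. Phosphoglycerate mutase kept 27% of the shNC sum, pyruvate kinase 33.8%, aldolase 38.6%, phosphoglycerate kinase 48.9% and lactate dehydrogenase 49.9%. The least reduced steps after import were hexokinase at 72.2% and glyceraldehyde-3-phosphate dehydrogenase at 67.2%. Phosphofructokinase stood at 59.5%, with 197 ± 8.69 CPM per kilobase in shNC and 117 ± 6.45 in shBry (SD, n = 3).

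**Figure D3:**
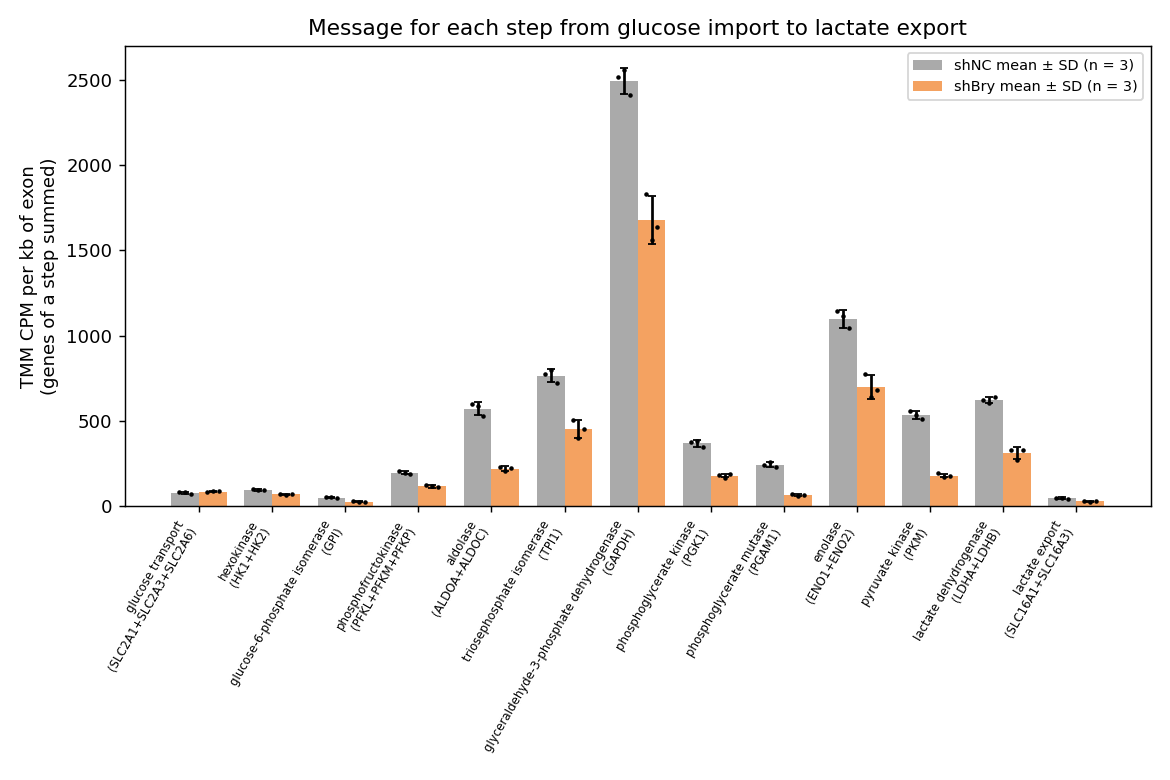
Level of each step from glucose import to lactate export as TMM-normalized CPM per kilobase of exon summed over the genes of the step (y axis, from 0), as mean bars with SD and the 3 libraries of each group as points. Glyceraldehyde-3-phosphate dehydrogenase is the highest step in both groups (2493.3 in shNC and 1676.7 in shBry), and phosphoglycerate mutase shows the largest relative gap (244 and 65.9).

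Ratios of paralogous genes within a library do not depend on how libraries are scaled, and 11 pairs were compared. Leaving aside SLC16A1 with SLC16A3, where SLC16A1 is near 0, 9 of the other 10 pairs had ratios that did not overlap between groups. Of single tested genes, 59.5% did not overlap between groups in either direction, and the share among ratios of other gene pairs was not computed. Nothing particular to these pairs is therefore read from the count. Each of these 9 had an exact two-sided permutation p of 0.1, the smallest possible with 3 against 3 libraries, and 0.11 after adjustment over the 11 pairs, so none can pass 0.05 in this design. The largest shift was that of PFKFB3 over PFKFB4, with a log2 ratio of 1.03, 0.82 and 0.98 in shNC and 2.16, 2.14 and 2.35 in shBry. The log2 ratio of LDHA over LDHB was lower in shBry by 1.05, a difference of -1.05 SE 0.06, and that of SLC2A1 over SLC2A3 had a difference of -1.01 (SE 0.12). HK2 over HK1 had a difference of 0.84 (SE 0.07), PFKP over PFKL 0.54 (0.03) and PFKP over PFKM -0.68 (0.04). ENO1 over ENO2 was the exception, with a difference of -0.06 (SE 0.11, exact permutation p = 0.7), so unequal change of the enolases was not detectable.

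**Figure D4:**
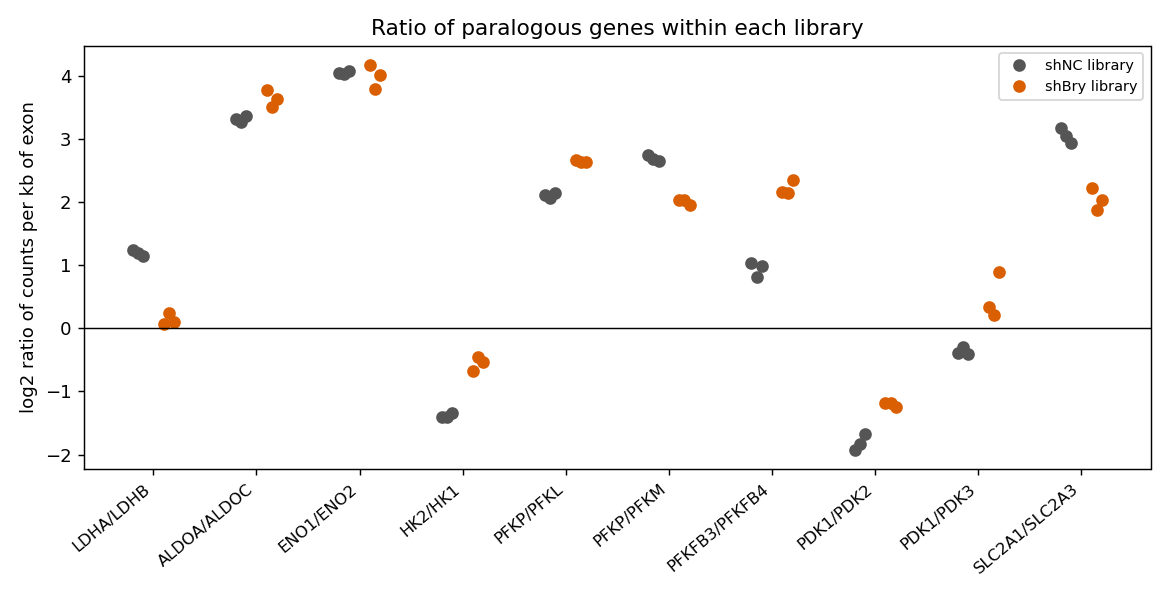
Log2 ratio of counts per kilobase of exon of 10 pairs of paralogous genes (y axis) in each shNC and shBry library (points). The groups are apart for 9 pairs, with the widest gap for PFKFB3/PFKFB4 (means 0.94 and 2.22), and overlap for ENO1/ENO2 (means 4.05 and 3.99).

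The rest of glucose metabolism, given by 87 further genes in lists of other transporters, other isozymes, pyruvate handling, other pentose phosphate genes, glycogen and side branches, and gluconeogenesis, had calls in both directions. Of these, 58 had enough counts, 13 were called lower and 11 higher, where 15.2% and 17.1% of all tested genes were. Their median log2 fold change was -0.05, against 0.03 over all tested genes, and nothing particular to these lists is read from the counts. Among 13 tested genes of pyruvate handling, such as the other pyruvate dehydrogenase subunits and the mitochondrial pyruvate carriers, 1 was called, and it was higher.
The side branches that gave the largest changes were those of amino sugars and fructose. GFPT1, the entry enzyme of the hexosamine pathway, had 46.7, 43.5 and 52.8 CPM in shNC and 202, 229 and 223 CPM in shBry (log2 fold change 2.19, standard error 0.09, adjusted p = 3.2e-10, edgeR). Its paralog GFPT2 had 86.7, 83.5 and 81.7 CPM in shNC and 34.8, 33.5 and 30.5 CPM in shBry, a log2 fold change of -1.35 (adjusted p = 2.5e-08). The paralogs thus moved in opposite directions in all libraries. KHK, the fructose kinase, was lower with a log2 fold change of -1.55 (17.2 ± 1.09 CPM in shNC and 5.87 ± 0.223 in shBry, SD, n = 3). PCK2, the mitochondrial enzyme that makes phosphoenolpyruvate, was higher in shBry, with 48.2, 48 and 45.2 CPM in shNC and 201, 163 and 178 CPM in shBry (log2 fold change 1.94, standard error 0.09, adjusted p = 1e-09).

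Genes known to respond to hypoxia, leaving out the members, had calls in both directions. Of 25 tested, 6 were called lower and 5 higher, with a median log2 fold change of -0.20. Of all tested genes 15.2% were called lower and 17.1% higher, so the counts are given as a description. BNIP3, a mitophagy receptor, had 389, 391 and 356 CPM in shNC and 90, 88.4 and 91 CPM in shBry (log2 fold change -2.08, standard error 0.08, adjusted p = 8.7e-11, edgeR). CA9, a carbonic anhydrase of the cell surface, had 96.5, 96.3 and 67.7 CPM in shNC and 24.2, 27 and 30.5 CPM in shBry (log2 fold change -1.67, adjusted p = 1.8e-07). Both were lower in every shBry library, as the members with called falls were. VEGFA, the angiogenic factor, went the other way, with 58.6, 61.7 and 57 CPM in shNC and 361, 339 and 372 CPM in shBry (log2 fold change 2.60, standard error 0.08, adjusted p = 1.4e-11). DDIT4, an inhibitor of mTORC1 signaling, had 248 ± 43.1 CPM in shNC and 743 ± 32.1 in shBry (SD, n = 3), a log2 fold change of 1.59 with an adjusted p of 4.3e-08 by edgeR.

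Of 27 tested regulators of glucose metabolism, 9 were called higher and 2 lower, the latter being MLXIPL and PPARGC1A (log2 fold change -1.54 and -0.82, named after their values were seen). Among all tested genes, 17.1% were called higher and 15.2% lower, and the counts are given as a description. HIF1A, the oxygen-regulated subunit of HIF-1, had 100, 105 and 133 CPM in shNC and 219, 267 and 224 CPM in shBry (log2 fold change 1.07, standard error 0.11, adjusted p = 2.2e-06, edgeR). EPAS1, which encodes HIF-2 alpha, had 15.6, 12.6 and 15 CPM in shNC and 48.3, 50 and 51.2 CPM in shBry (log2 fold change 1.79, adjusted p = 1.3e-08). MYC, which encodes a growth-promoting transcription factor, had 247, 267 and 243 CPM in shNC and 705, 660 and 712 CPM in shBry (log2 fold change 1.45, standard error 0.08, adjusted p = 2.9e-09). All 3 genes had higher values in every shBry library than in any shNC library.
Among the regulators, the largest rises belonged to a pair of arrestin-domain genes that dampen glucose uptake and respond to intracellular glucose. TXNIP had 139, 155 and 135 CPM in shNC and 1429.1, 1790.0 and 1610.4 CPM in shBry (log2 fold change 3.49, standard error 0.10, adjusted p = 6.2e-12, edgeR). ARRDC4 had 2.02, 3.03 and 3.66 CPM in shNC and 27.6, 41 and 35.6 CPM in shBry (log2 fold change 3.59, standard error 0.20, adjusted p = 5e-09). The lowest shBry library was above the highest shNC library for both.

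**Figure D5:**
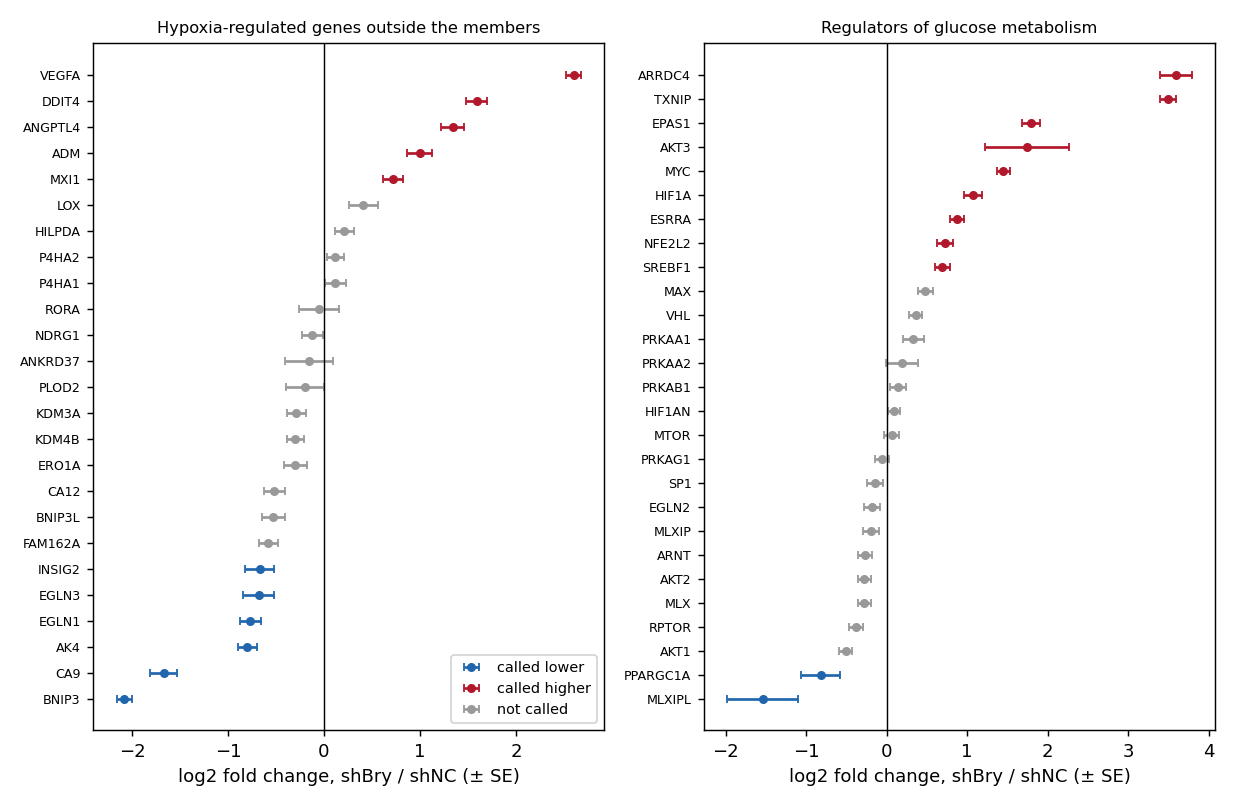
Log2 fold change of shBry over shNC (x axes, with SE) of 25 hypoxia-regulated genes that are not among the 35 genes (left) and of 27 regulators (right). BNIP3 (-2.08) and CA9 (-1.67) lie opposite VEGFA (2.60) on the left, and TXNIP (3.49) and ARRDC4 (3.59) head the regulators, with MYC and HIF1A also above 0.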

How the data were processed

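Total RNA of 3 MDA-MB-231 shBry and 3 MDA-MB-231 shNC libraries was sequenced. The table deposited by the authors holds raw counts (whole reads per gene symbol), not normalized. The submitters' processing notes name HISAT2 2.0.4, HTSeq and GRCh38. The annotation and strand setting are not given in the sources used here, so overlapping genes could share reads. Columns without a name (9) held no values. Samples were grouped by their hairpin label.

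Genes were filtered with filterByExpr (minimum count 10), scaled with TMM and compared over all 6 libraries by quasi-likelihood (edgeR 4.0.16, R 4.3.3). Calls needed p under 0.05 after Benjamini-Hochberg adjustment and more than 1.5-fold difference, as in the study's fold limit. The scripts were tested on simulated data. CPM are TMM-normalized, and standard errors are the log2 fold change divided by the square root of F. The limit for a count of 0 is 3 counts. Exon lengths, positions, overlaps and shared stretches of 50 bases came from GENCODE 29 on GRCh38, by symbol. Ratios of paralogs were log2 ratios of counts plus 0.5 per kilobase. Lists were described by counts and medians.

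All 35 members were named. From the other lists, the 12 called genes of largest change with a mean of at least 5 CPM were named, plus HIF1A, MYC and TXNIP, of which MYC and TXNIP were already among the 12. BSG, MLXIPL, PPARGC1A, PDK4, HKDC1 and the tested SLC2A genes outside the members were named outside this rule. The members and lists were chosen with earlier results of these data known. Alternatives were no TMM, DESeq2 1.42.0, limma-voom (limma 3.58.1), other filters and limits, a replicate block, each library left out, pseudogene copies added, and a correction for GC content and transcript length.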

Additional observations from a re-analysis of the deposited data

How the results depend on the processing

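With a fold change limit of 2, 2297 genes were called in all, 10 members were called, all 10 lower and 0 higher, and 24 genes of the other lists were called. Without a fold change limit the counts were 8139 for all genes, 25 for members with 22 lower and 3 higher, and 74 for the other lists. The main counts were 4945, 19, 18, 1 and 46. In all of these counts the other lists include the hypoxia-regulated genes and the regulators. For the 87 genes of the rest of glucose metabolism alone, the main count was 24. With each library left out, 18 to 20 members were called, and 17 of the 19 kept their call throughout, ENO2 and PDK1 being the exceptions. The median log2 fold change of the members lay between -0.65 and -0.58 in those fits. It was -0.50 once the GC content and transcript length trend was taken out, for 34 members with values, with or without a replicate block. SLC2A1, not called, ranged from -0.14 to 0.01 with a library left out (0.01 without shNC replicate 1), and RPE, also not called, from -0.23 to 0.04 (0.04 without shNC replicate 3 and 0.03 without shBry replicate 1). The replicate number as a block gave 19 members and 4914 genes in all. Libraries of the same number did not deviate together (r = 0.18, -0.084 and -0.028), and not every library correlated best with its own number, so the numbers were not taken as pairs. Dropping TMM, testing with DESeq2 or limma-voom, testing without a filter or with a minimum of 10 counts per library, and using unadjusted p gave 19 or 20 called members. Genes at few counts, such as SLC16A1, could not be compared at this depth.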
